A study of Caenorhabditis elegans with 4 samples.

Results

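The X chromosome of Caenorhabditis elegans carried 729 regions with trimethylation of histone H3 at lysine 4 (H3K4me3), of 4661 such regions in the genome. They were taken from chromatin immunoprecipitation and sequencing (ChIP-seq) of whole larvae, for which 2 ChIP replicates with a peak list each were deposited. Every peak that a list places on X was used, 699 in replicate 1 and 444 in replicate 2. Peaks of the lists that overlapped by 1 bp or more were joined into a region, and a region with a peak of each list is called shared. On X, 402 regions were shared, 292 came from replicate 1 alone and 35 from replicate 2 alone. The series has 4 samples in its labels: 2 H3K4me3 ChIP samples, made with a Wako antibody, and 2 input DNA samples, whose data were not analysed here. All of them are whole-body samples of the wild-type strain N2 at the third larval stage (L3), with no treatment or mutation, and the cell types of the animal are mixed in them. No gene, promoter or DNA sequence is attached to the regions, because the genome and annotation of the files' build, WormBase WS190, were not used here.

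H3K4me3 is laid down by methyltransferase complexes of the COMPASS type and marks the nucleosomes around the start sites of transcribed genes. In the worm, hermaphrodites have a pair of X chromosomes and males a single one. A dosage compensation complex related to condensin binds X in the cells of hermaphrodites outside the germ line and lowers transcription from it, and DPY-30, one of its subunits, is also a subunit of the COMPASS complexes. In germ cells X is largely silent, and genes with germline roles are less common on X than on the autosomes. Autosomes have gene-rich centres and less active arms, a division that is weaker on X.

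The score of a peak is the authors' own value from their peak caller, on a scale that is not named. It starts just above 50, and a block of peaks shares the value 3100, called the ceiling here. Some peaks lie above it, up to 3233 on X, and are counted as at the ceiling. Scores were compared between lists by percentile, the rank of a peak within its whole list from 0 for the weakest to 100. Peaks at or above the ceiling were tied. Replicate 1 had the longer list (4408 against 3280 peaks on all chromosomes), and read depths are not known. Within a list no peaks overlapped each other. A single X region, from replicate 2 alone, was listed as beginning before the first base of the chromosome (-110 to 620), with a score of 76.2. Whether the replicates came from separate cultures is not stated in the labels.

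X had the lowest share of regions found in both lists. Of its 729 regions, 55.1% were shared (95% Wilson interval 51.5 to 58.7%), against 64.0% on the autosomes together (62.4 to 65.4%) and 59.9 to 68.7% on single autosomes. Over all chromosomes 62.6% were shared. X had fewer shared regions, 22.8 per Mb against 30.5 per Mb on autosomes, and somewhat more regions of replicate 1 alone, 16.6 per Mb against 14.2 per Mb. For regions of replicate 1 alone X lay within the range of single autosomes (10.5 per Mb on V to 18.0 on III). Regions of replicate 2 alone numbered 1.98 per Mb on X and 3.02 per Mb on autosomes. Counting all regions, X had 41.3 per Mb and the autosomes 47.7, with single autosomes from 34.5 (chromosome V) to 61.2 (chromosome III). X thus lay within the autosomal range in density and below it in the share that was shared. Shared regions covered 3.88% of the span of X and 6.02% of that of the autosomes, where single autosomes ranged from 4.04 to 8.03%.

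**Figure D1:**
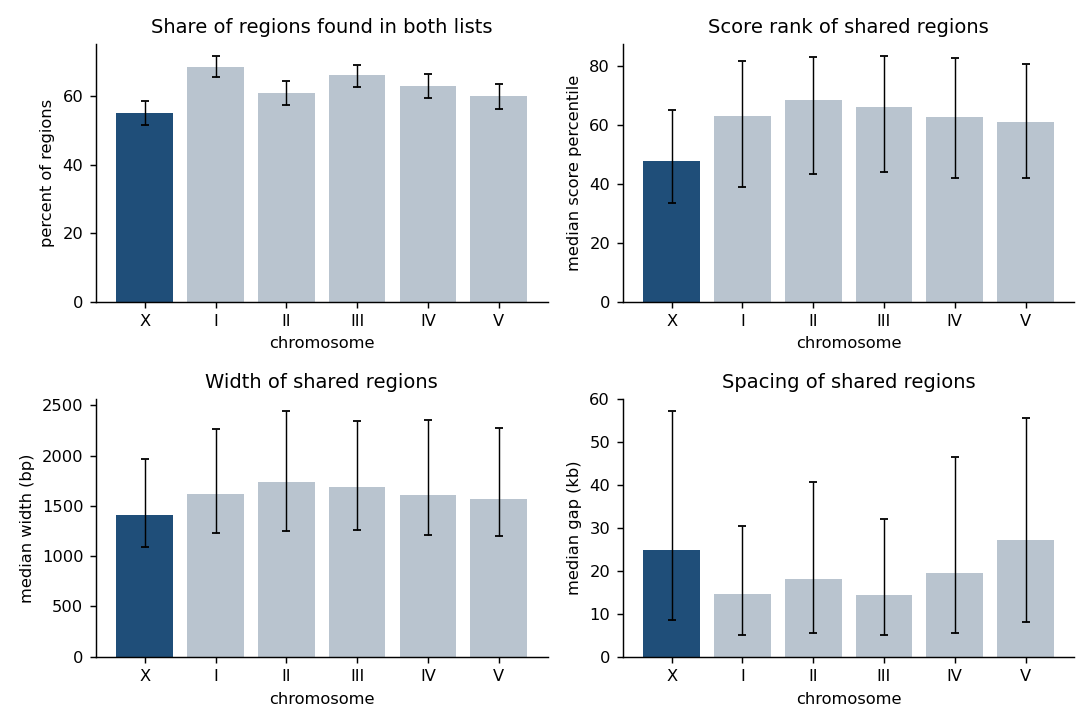
X (dark bar) beside the autosomes (pale bars): percent of joined regions found in both lists (bars, with 95% Wilson intervals), and the median score percentile, width in bp and gap to the next region in kb of shared regions (bars, with the interquartile range over regions). X is the lowest of the 6 chromosomes in shared share, score percentile and width, and has the second longest gaps after chromosome V.

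Shared X regions ranked below autosomal ones, with median percentiles of 56.5 against 68.7 in replicate 1 and 39.7 against 58.2 in replicate 2. Their median score percentile, averaged over the lists, was 47.9 on X (interquartile range 33.5 to 65.0), against 64.0 on autosomes (42.2 to 82.4) and 60.9 to 68.5 on single autosomes. Their median raw score was 1387 on X and 2836 on autosomes in replicate 1, and 389 on X and 1084 on autosomes in replicate 2. When the 2917 shared regions of the genome were ranked among themselves, the median X region stood at percentile 35.0 by the scores of replicate 1 and 33.8 by those of replicate 2, against 53.0 and 53.4 for autosomal regions. The place of X among shared regions was thus close in both lists. X peaks were concentrated in the weaker part of each list. At or below the 50th percentile lay 435 of the 699 X peaks of replicate 1 (62.2%) and 301 of the 444 X peaks of replicate 2 (67.8%). In replicate 1 the single autosomes had 45.1 to 49.6% of their peaks there, and in replicate 2 they had 43.0 to 53.9%, and by construction 50% of all peaks lie there.

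Weak X peaks of replicate 1 were seldom found in replicate 2, and so were weak autosomal peaks. Up to the 25th percentile, 30 of 214 X peaks of replicate 1 were found in replicate 2 (14.0%, 95% Wilson interval 10.0 to 19.3%), against 13.3% on autosomes (11.2 to 15.7%). From the 25th to the 50th percentile the shares were 55.2% on X (48.6 to 61.6%) and 57.5% on autosomes (54.3 to 60.8%). Between the 50th and 75th percentiles they were 95.5% on X (91.0 to 97.8%) and 97.1% on autosomes (95.7 to 98.1%). Above the 75th percentile 106 of 108 X peaks were found (98.1%, 93.5 to 99.5%), against 99.8% on autosomes (99.3 to 99.9%). Over all chromosomes and ranks the share was 66.9%. The intervals of X and autosomes overlapped in every band. In the other direction, the X peaks of replicate 2 up to the 25th percentile were found in replicate 1 in 120 of 145 cases (82.8%, 75.8 to 88.0%), against 70.1% on autosomes (66.5 to 73.4%), where the intervals do not overlap. In this direction the share over all chromosomes and ranks was 91.3%. These intervals cover counting error over peaks of 2 samples only.

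Each of these measures was also set against the autosomes with the chromosome as the unit. With X set against 5 autosomes, an exact permutation test has a smallest two-sided p of 0.333, so no comparison could pass the threshold of 0.05. X was the lowest of 6 chromosomes in the share of shared regions, their median width, their median percentile and the ratio of middle to outer density (exact two-sided p = 0.333 each, 0.583 after Benjamini-Hochberg adjustment over 7 comparisons). It was second lowest in density of shared regions and of all regions and second highest in median gap (exact two-sided p = 0.667 each, adjusted 0.667).

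Along X, shared regions were spread with little contrast. In the 8 whole windows of 2 Mb the number of shared regions ran, from the left end, as 35, 43, 49, 53, 48, 51, 35 and 60, and the last, shorter window held 28. The densest window was 14000001 to 16000000 with 30 shared regions per Mb, followed by 6000001 to 8000000 with 26.5. The sparsest were 1 to 2000000 and 12000001 to 14000000, each with 17.5 per Mb. The densest window thus held 1.71 times as many as the sparsest, and 2.77 times with windows of 1 Mb. Regions of replicate 1 alone followed another order. They were most frequent in the window from 4000001 to 6000000, with 55 beside 49 shared regions, and, among whole windows, least frequent in the first, with 24. In that window 54.6% of regions were found in a single list, against 36.2% in the window from 14000001 to 16000000. Within it the megabase from 5000001 to 6000000 held 35 regions of replicate 1 alone and 22 shared regions.

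Ranks of shared regions varied along the chromosome without a steady trend. The median percentile in replicate 1 lay between 48.9 and 60.5 in the 9 windows. In replicate 2 it lay between 32.7 and 48.6, the highest being the first window. Regions at the ceiling in both lists numbered 32 on X (7.96% of shared regions, against 22.3% on autosomes and 20.3% over all chromosomes). Cut into 3 equal parts of 5.88 Mb, X held 15 of these in the left part, 9 in the middle and 8 in the right, and regions with a mean percentile above 75 numbered 23, 22 and 22. The first 500 kb alone held 4 regions at the ceiling in both lists among 10 shared regions. The window from 4000001 to 6000000 held 7 regions at the ceiling in both lists.

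**Figure D2:**
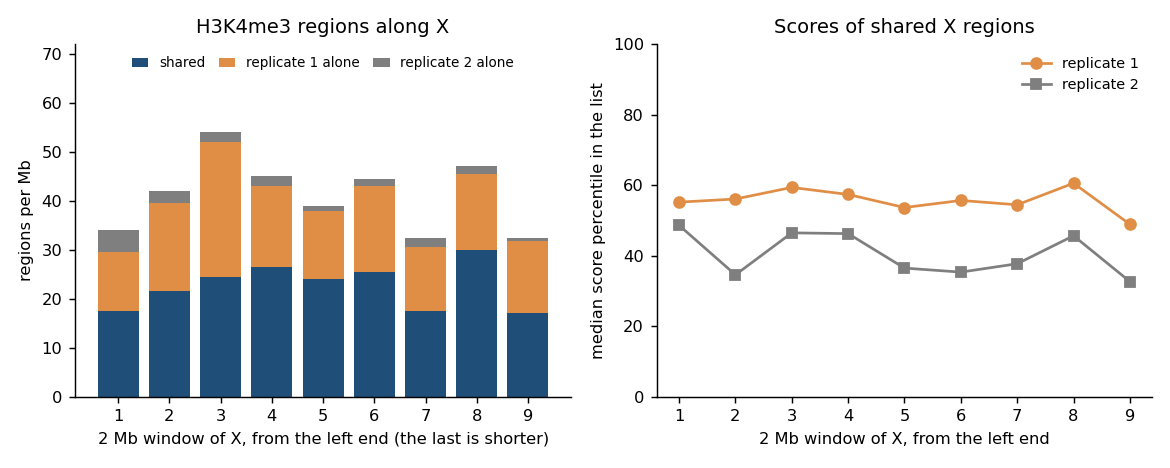
Left, H3K4me3 regions per Mb in 2 Mb windows of X from its left end, stacked as shared, replicate 1 alone and replicate 2 alone; right, median score percentile of the shared regions of each window within each list. Shared density runs from 17.1 per Mb in the last window to 30 per Mb in window 8, the regions of replicate 1 alone are highest in window 3, and replicate 1 has the higher median percentile in every window.

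The middle of X was only slightly denser than its ends. Shared regions numbered 21.4 per Mb in the left part, 25.4 in the middle and 21.6 in the right, so that the ratio of middle to outer parts was 1.18, against 1.43 to 1.88 on single autosomes. For regions of replicate 1 alone the ratio was 0.995 on X and 1.33 to 2.17 on single autosomes. These regions declined from left to right on X, with 19.1 per Mb in the left part, 16.5 in the middle and 14.1 in the right, and regions of replicate 2 alone numbered 18, 9 and 8. On every autosome, by contrast, the middle part had the most regions of replicate 1 alone per Mb. Regions found in a single list made up 50.8% of the left part of X, 41.6% of the middle and 41.7% of the right. Counting all regions, the left and middle parts were nearly equal, with 43.6 and 43.4 per Mb, and the right part had 37.1. Median widths of shared regions were 1320 bp on the left, 1435 bp in the middle and 1481 bp on the right.

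Shared regions on X formed few dense segments, as on chromosome V, and few nearly empty ones, as on most autosomes. The 35 whole segments of 500 kb on X held a median of 11 shared regions (range 4 to 22), against a median of 15 on autosomes (range 0 to 35). A count of 20 or more was reached by 2 X segments (5.71%) and by 45 of 162 autosomal segments (27.8%), with 2.44% on V, 11.8% on IV and 43.3 to 50.0% on the other autosomes. A count of 5 or fewer was found in 2 X segments (5.71%) and in 14 autosomal segments (8.64%), of which 10 were on V, 2 each on II and IV and none on I and III. The densest X segment was 14500001 to 15000000 with 22 shared regions and 6 of replicate 1 alone. The sparsest was 1500001 to 2000000 with 4 shared regions, 1 of replicate 1 alone and 3 of replicate 2 alone. The coefficient of variation over segments was 0.363 on X, and on autosomes it was lower on chromosomes I (0.323) and III (0.343) and higher on IV (0.424), II (0.472) and V (0.505).

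Neighbouring shared regions on X were far apart and seldom adjacent. The median gap was 24976 bp on X (interquartile range 8597 to 57154 bp), against 17436 bp on autosomes (5801 to 40048 bp). Chromosome V had a median gap of 27112 bp, longer than that of X. Gaps of at most 1 kb numbered 9 of 401 on X (2.24%), against 165 of 2510 on autosomes (6.57%), and they made up 5.08 to 8.09% on single autosomes, V included (5.58%). Over all chromosomes 5.98% of gaps were that short. At the other end, 46 X gaps exceeded 100 kb (11.5%), against 138 on autosomes (5.50%) and 6.32% over all chromosomes. Chromosome V had 12.3%. X was thus close to V in the share of long gaps and below it in that of short ones.

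**Figure D3:**
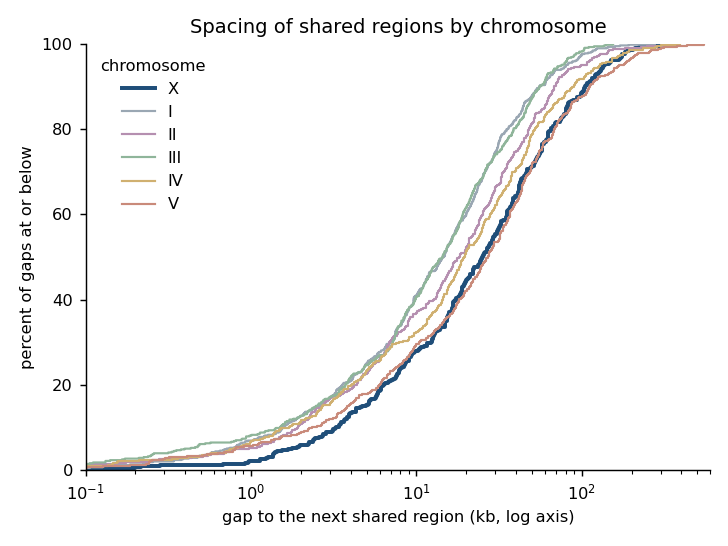
Cumulative percent of gaps between neighbouring shared regions, by chromosome, with the gap in kb on a log axis. The thick line of X lies lowest among the 6 chromosomes at 1 kb, where it reaches 2.24%, and runs beside chromosome V at gaps over 100 kb.

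With a limit of 1 kb between neighbours, the shared X regions formed 1 run of 3 and 7 runs of 2, and the remaining 385 stood apart. The run of 3 lay at 11056949 to 11066804. The shortest pairs were at 1061868 to 1064262 (2395 bp), 8789156 to 8792653, 1128347 to 1131849 and 2686055 to 2689582. A longer pair at 2237357 to 2243850, singled out after its values had been seen, consisted of regions that were both at the ceiling in both lists. Spacing had little to do with rank, as Spearman's rho between the distance to the nearest shared neighbour and the mean percentile was -0.04 over 402 regions of the same libraries. The 40 regions more than 50 kb from any shared neighbour had a median width of 1083.5 bp, against 1698 bp for the 17 with a neighbour within 1 kb. The corresponding median percentiles were 47.9 and 51.9.

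The longest stretches without any region were 155.5 kb at 15866539 to 16022032, 149.5 kb at 12693406 to 12842901, 148.6 kb at 1603297 to 1751904, 144.5 kb at 12205724 to 12350201 and 134.9 kb at 7826331 to 7961240. The first of them is part of the longest gap between shared regions, 381.4 kb at 15850255 to 16231619, which held 7 regions of replicate 1 alone and none of replicate 2 alone. The next longest, 313.6 kb at 1131850 to 1445455, held 8 and none. These last gaps were singled out after their values had been seen. A region missing from a list is not evidence that the mark was absent, since the thresholds of the caller are not known.

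Regions on X were narrow, and wide ones were few. The median width of shared regions was 1405.5 bp on X (interquartile range 1090 to 1961 bp) and 1645 bp on autosomes (1231.5 to 2340.5 bp). Widths up to 1000 bp made up 15.7% of shared regions on X and 9.15% on autosomes. Wider than 3 kb were 34 X regions (8.46%), against 357 autosomal ones (14.2%) and 13.4% over all chromosomes. Wider than 5 kb were 5 X regions (1.24%), against 60 autosomal ones (2.39%) and 2.23% over all chromosomes. The narrowest of these 5 measured 5141 and 5202 bp, and the next below the limit measured 4942 and 4892 bp. Wider X regions had higher percentiles, with a Spearman's rho of 0.414 over 402 regions, as on autosomes (0.479 over 2515). The exception was the group wider than 5 kb, whose median percentile was 58.3 on X and 88.0 on autosomes.

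The 10 widest shared X regions differed in how the lists scored them. The widest, at 2211950 to 2219150 (7201 bp), was covered over 7058 bp at the ceiling by replicate 1, and replicate 2 had a peak of 923 bp with a score of 50.1 at its left edge. The region at 3089421 to 3094561 (5141 bp) reached the ceiling in replicate 1, which covered all of it, and a score of 387 in replicate 2, which covered 3986 bp. At 11056949 to 11061890 (4942 bp) replicate 1 was at the ceiling over 4842 bp, and replicate 2 covered 2444 bp with a score of 217. The region at 16610945 to 16615580 (4636 bp) reached the ceiling in replicate 1 and a score of 747 in replicate 2, over nearly the same extent.

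At the ceiling in both lists were the regions at 6088782 to 6093983 (5202 bp), 4710978 to 4715869 (4892 bp), 3111904 to 3116766 (4863 bp) and 15605805 to 15610264 (4460 bp). Together with 14165963 to 14170322 (4360 bp), they were also the 5 widest of the 32 regions tied for the highest rank on X. In these 5 regions replicate 2 covered between 4238 and 4953 bp, and replicate 1 between 3348 and 5202 bp. Another 2 of the 10 were broad in both lists and at the ceiling in neither. The region at 15271959 to 15277502 (5544 bp) scored 1154 in replicate 1 and 1328 in replicate 2, and that at 16380855 to 16386060 (5206 bp) scored 208 and 1112.

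**Figure D4:**
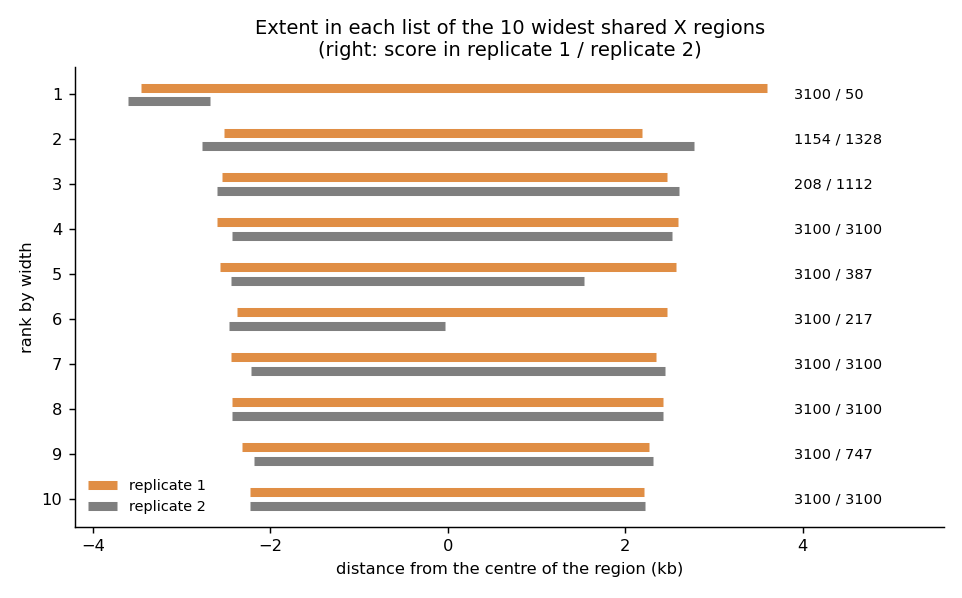
Extent of the peaks of replicate 1 (orange) and replicate 2 (grey) in the 10 widest shared X regions, as distance from the centre of the region in kb, with both scores at the right (values above the ceiling shown as 3100). Where a list has 2 peaks in a region, the bar runs from the first to the last base. Regions 1 and 6 are broad in replicate 1 only, with 923 and 2444 bp covered in replicate 2, and most others have nearly the same extent in both lists.

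Some wide domains were split in the lists. When peaks of a list closer than 500 bp were merged, 9 X regions exceeded 5 kb in place of 5. The widest was then 11056949 to 11066804 (9856 bp), which joined the run of 3 regions. Replicate 1 was at the ceiling in all 3 of them and replicate 2 scored 217, 115 and 115. Another domain, 14577682 to 14584691 (7010 bp), joined a strong region of replicate 1 alone to a shared region 291 bp away, in which replicate 1 was at the ceiling and replicate 2 scored 67.2. The others added by merging were 5207963 to 5215981 (8019 bp) and 15307772 to 15314663 (6892 bp), both with higher scores in replicate 1, at 895 and 1622, against 243 and 149.9 in replicate 2.

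Where a shared X region held a single peak of each list, in 390 regions, the lists drew it much alike. The stretch covered by both peaks was a median of 89.7% of the region (interquartile range 79.4 to 94.6%), against 90.2% on autosomes. The peak of replicate 1 was the wider one in 275 of the 390 (70.5%), against 64.2% on autosomes. Median widths were 1298 bp in replicate 1 and 1183.5 bp in replicate 2.

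The scores of shared X regions were ordered alike in both lists, with a lower correlation than on any autosome when all shared regions were counted. Spearman's rho was 0.813 over 402 X regions and 0.735 over the 296 below the ceiling in both lists. On single autosomes it ranged from 0.857 on V to 0.906 on I over all shared regions. These values include ties, as 7.96% of shared X regions were at the ceiling in both lists, against 17.9 to 24.6% on single autosomes. A value below the ceiling is given for X only, so that comparison was not made. The score in replicate 1 was more than 3 times that in replicate 2 in 186 X regions (46.3%), against 735 autosomal regions (29.2%) and 31.6% over all chromosomes. The ceiling limits this ratio, and 32 X regions (7.96%) and 561 autosomal regions (22.3%) were at the ceiling in both lists. Percentiles in the lists lay more than 30 points apart in 56 X regions (13.9%), against 187 autosomal regions (7.44%) and 8.33% over all chromosomes. In 51 of the 56 X regions and 168 of the 187 autosomal ones the percentile was higher in replicate 1. Over all shared regions it was higher in replicate 1 in 87.1% on X and 74.3% on autosomes. A region at the ceiling in both lists has percentile 85.1 in replicate 1 and 90.9 in replicate 2. It can thus never count as higher in replicate 1 or as more than 30 points apart. Such regions were 7.96% of shared regions on X and 22.3% on autosomes, so these shares do not compare X and autosomes on equal terms. Ranked among shared regions alone, 23 X regions (5.72%) and 61 autosomal ones (2.43%) lay more than 30 points apart, with the rank higher in replicate 1 in 17 of the 23 and in 37 of the 61, and single autosomes ranged from 1.35 to 4.18%.

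The largest differences all had high scores in replicate 1. After the widest region, the next were at 14581270 to 14584691 (ceiling in replicate 1, 67.2 in replicate 2), at 11064784 to 11066804 and 11061894 to 11064502 (ceiling and 115 in both), and at 2144380 to 2145912 (ceiling and 165). Of these 5 regions, 3 lay in the domains that merging joined. They lay within the windows from 2000001 to 4000000, 10000001 to 12000000 and 14000001 to 16000000.

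A stretch of 53.5 kb in the window from 6000001 to 8000000 went the other way. In 5 consecutive shared regions, between 6279272 and 6332816, replicate 2 had the higher score. At 6279272 to 6281141 the score was 379 in replicate 1 and 2005 in replicate 2, and at 6323182 to 6324616 it was 265 and 1679. At 6326151 to 6327529 it was 158 and 1413, at 6328921 to 6330242 it was 177 and 1099.8, and at 6331510 to 6332816 it was 201 and 793. The score in replicate 1 was thus 0.111 to 0.254 times that in replicate 2, where the median over shared X regions was 2.85 times, and in all 5 regions the peak of replicate 2 was the wider one. A region of replicate 2 alone followed at 6334152 to 6335368 with a score of 104. The shared neighbours on both sides had the usual order, with 1398 in replicate 1 and 458 in replicate 2 on the left and the ceiling and 915 on the right.

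Higher scores in replicate 2 were otherwise rare. They occurred in 18 of 402 shared X regions (4.48%), against 91 of 2515 on autosomes (3.62%) and 3.74% over all chromosomes. The longest run of neighbouring shared regions with this order was 5 on X, 2 on chromosomes III, IV and V and 1 on I and II. Scores in replicate 2 exceeded 3 times those in replicate 1 in 6 of 402 X regions and 25 of 2515 autosomal ones. Chromosomes IV (9 of 462) and V (7 of 431) had more such regions than X. Of the 6 on X, 5 were in this stretch and the other was the broad region at 16380855 to 16386060. The stretch was singled out after its values had been seen, and each list comes from a single library.

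**Figure D5:**
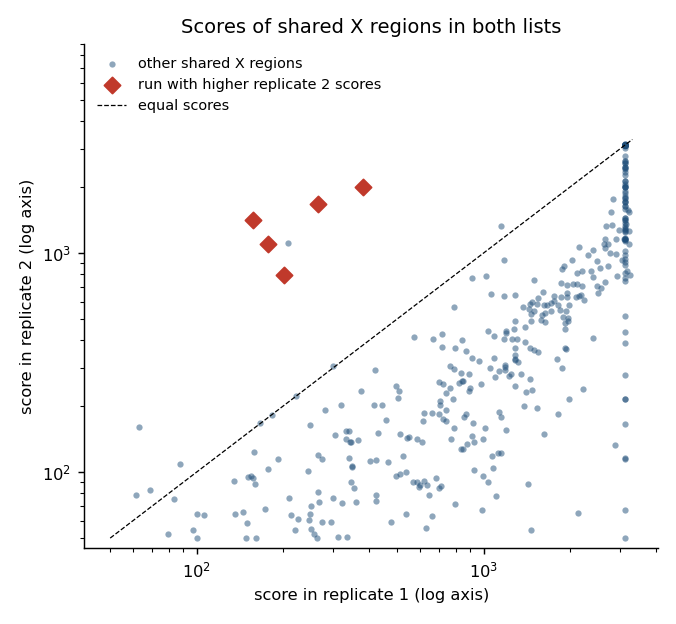
Score in replicate 1 (x axis) and replicate 2 (y axis) of the 402 shared X regions, both on log axes, with a dashed line at equal scores; the column of points at the right is the ceiling. The 5 diamonds are the consecutive regions between 6279272 and 6332816, with scores of 158 to 379 in replicate 1 and 793 to 2005 in replicate 2, above the line on which few other regions lie.

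Regions found in a single list were weak and narrow, and those of replicate 1 alone lay farther from shared regions on X than on autosomes. The 292 X regions of replicate 1 alone had a median score of 131 and a median width of 902.5 bp, against 129 and 863.5 bp on autosomes. The 35 of replicate 2 alone had a median score of 81.4 and a median width of 1061 bp, against 80.7 and 1119 bp. Their scores and widths thus differed little between X and autosomes. The distance to the nearest shared region did differ for replicate 1. It was a median of 14803 bp on X (interquartile range 5000 to 32459 bp), against 7252 bp on autosomes (2760 to 17012 bp) and 6495 to 9171 bp on single autosomes. On chromosome V, where shared regions were sparser than on X, it was 8447 bp. More than 50 kb from any shared region were 40 of the 292 (13.7%), against 60 of 1168 on autosomes (5.14%) and 6.85% over all chromosomes. For replicate 2 alone the medians were 15003 bp on X and 11538 bp on autosomes, with 8602 to 13539.5 bp on single autosomes. Within 5 kb of a shared region were 12 of these 35 on X (34.3%), against 28.9% on autosomes and 22.5 to 33.3% on single autosomes.

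A few of them were strong. The highest of replicate 1 alone was at 14577682 to 14580978 (3297 bp, above the ceiling at 3128), in the split domain described above. The next, at 5148806 to 5150653 (1848 bp), was at the ceiling and 14324 bp from a shared region. They were followed by 13861450 to 13864457 with a score of 1866, 980533 to 982122 with 1096 and 16022033 to 16024336 with 1059, the last of which stood 171778 bp from any shared region in the longest gap. Of replicate 2 alone, none exceeded a score of 430.0, reached at 4810591 to 4813240. The others were 11711104 to 11712397 with 413, 108845 to 114611 with 363, 15482162 to 15484172 with 325 and 12635879 to 12636944 with 309. That at 108845 to 114611 was 5767 bp wide, wider than all but 1 of the shared X regions.

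These comparisons rest on 2 peak lists of a single group and describe where peaks were called, not how much of the mark was present. When only the upper 50% of each list by score was kept, the density of shared regions on X fell further below that of autosomes (log2 ratio -1.19 in place of -0.42), and the difference in the share that was shared was -23.6 in place of -8.82 percentage points. The cut acts on each list separately, so a region above it in a single list no longer counted as shared. Median percentiles of shared X regions were 56.5 in replicate 1 and 39.7 in replicate 2, against 68.7 and 58.2 on autosomes. Before the cut, 98.1% of X peaks of replicate 1 above the 75th percentile were found in replicate 2, against 99.8% on autosomes. The larger difference thus does not show that strong X regions agreed less. With all peaks of the list of replicate 1 alone the log2 ratio of densities was -0.18, and with those of replicate 2 alone -0.45.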

How the data were processed

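H3K4me3 ChIP-seq of whole N2 larvae at stage L3 was measured in 2 samples. Positions in the deposited lists are on WormBase WS190, per the file headers. The deposited files hold other values, the first and last base of each peak, and a score per peak whose scale the authors do not name. Per the submitters' processing notes BWA was used. The deposited lists name MACS in their peak names and MA2C in their source field, and the sources used here give no settings or read depths. Each ChIP sample has its own list, so peaks were called per sample. The libraries were amplified by PCR and carry no molecular identifiers, so reads need not be independent, and intervals cover counting error only.

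Lists were joined in Python 3.11.15 with pandas 2.3.3 and NumPy 2.4.6. The joining was tested on simulated lists. Scores above 3100 were tied with it. A chromosome was taken to span from base 1 to the last base of any peak, 17.6 Mb for X. Regions were placed by midpoint. The chromosome comparisons used an exact permutation test, and shares have Wilson intervals (SciPy 1.17.1). Windows, limits and the rule for named regions (the widest, highest, most unequal and strongest single-list regions, longest gaps, closest runs and densest segments) were chosen with earlier results of these data known. The limit of 30 percentile points, the merged domains and the stretch with higher replicate 2 scores were chosen after the data were seen. Regions were not resampled. Alternatives were a reciprocal overlap of 50%, peaks at or above the median score, merging within 500 bp, equal list lengths, each list alone, and other windows and limits.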

Additional observations from a re-analysis of the deposited data

How the results depend on the processing

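For 12 results 63 alternative values were computed, of which 52 kept their direction or stayed within 1.5 times the main count or the interval of the correlation, 11 moved and 0 reversed. Alternatives for the correlation of scores, for percentiles more than 30 points apart and for the distance of regions of replicate 1 alone were chosen after seeing the data. Densities on X relative to autosomes (log2) lay between -1.19 and -0.38 for shared regions and between -0.64 and -0.18 for all regions. In a single list no region can be shared, and all its peaks gave -0.18 for replicate 1 and -0.45 for replicate 2. The median width ratio ranged from -0.26 to -0.11 (log2) and the percentile difference from -17.7 to -5.73. The middle to outer log2 ratio ranged from 0.03 to 0.27. The log2 ratio of median gaps ranged from 0.48 to 1.33 for shared regions, and was 0.34 for all peaks of replicate 1 alone. That of distances to a shared region ranged from 0.95 to 1.18. The share of shared regions on X differed from that of autosomes by -23.6 to -7.16 percentage points, and gives no value from a single list. The value of -23.6 is from peaks at or above the median score, where a region above the cut in a single list no longer counted as shared.

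The number of X regions wider than 5 kb was 3 with a reciprocal overlap of 50%, 2 with peaks at or above the median score, 9 with close peaks merged, and 2 to 3 with either replicate left out. It was 34 at a limit of 3 kb and 14 at 4 kb. The ratio of the densest to the sparsest window was 2.77 with windows of 1 Mb in place of 1.71, and the cause was not tested. Spearman's rho of scores was 0.849 with a reciprocal overlap and 0.669 with peaks at or above the median score. That threshold left 7 regions with percentiles more than 30 points apart in place of 56. A region below the threshold in either list no longer counted as shared there, so the lower count follows from the filter. No paired analysis was possible because the result comes from a single group of peak lists and the data of the input samples were not analysed here. Read depth is not known, so what it limits among weak peaks was not measured.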
